A study of Mus musculus with 56 samples.

Results

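HuR is an RNA-binding protein, encoded by Elavl1, and the comparison described here is between male and female mice whose gastrocnemius, a calf muscle made mainly of fast fibres, is labelled as lacking it. Total RNA libraries of 7 male and 7 female labelled knockouts were set against each other, 14 of the 56 libraries of the series. Genes on the X and Y chromosomes were left out, and 12226 autosomal genes were tested. In each sex and genotype the series holds 7 mice, each with a library of total RNA from whole homogenate and a library of RNA held by tagged ribosomes. Every mouse, controls included, had ribosomal protein L10A tagged with GFP and switched on by Cre recombinase, which the Mlc1f promoter, that of a fast myosin light chain gene, drove. The labelled knockouts carried a floxed Elavl1 gene in addition, and all mice were 20 to 22 weeks old when the tissue was taken. Total RNA also holds transcripts of cells in which this promoter is not active, such as vessel, immune and connective tissue cells.

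HuR binds AU-rich and U-rich stretches, mostly in the untranslated ends of mRNAs, and is known chiefly for protecting them from decay. Skeletal muscle differs between the sexes under the influence of androgens, oestrogens and the sex-specific rhythm of growth hormone release. Known marks of the male pattern in rodents include androgen-responsive enzymes of polyamine synthesis, and female muscle is known to hold more of the slow, oxidative fibre programme.

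Elavl1 itself (ENSMUSG00000040028) had a lowest, median and highest level of 71.9, 90.2 and 95.4 CPM, counts scaled to the size of each library, in the female knockouts. The male knockouts stood at 51.4, 83.7 and 97.6 CPM, and the female and male controls had medians of 82.9 and 86.0 CPM. Levels overlapped among all groups, and the log2 difference, male minus female, was −0.09 in the knockouts (standard error 0.128, adjusted p = 0.812). In ribosome-bound RNA of the same mice, however, the males were lower, at 66.5 CPM (SD 16.98, n = 7) against 105.8 CPM (SD 20.1, n = 7) in the females, a log2 difference of −0.62 (standard error 0.149, edgeR adjusted p = 0.00222). The ribosomal libraries of the sexes also differed in depth and in reads outside genes. Female knockouts had 0.49 to 1.21 M counts (M for mega) and 6.53% to 12.5% of reads outside genes. Male knockout 2 had 0.16 M counts and 12.2%, and the other males had 1.14 to 3.58 M counts and 5.37% to 5.86%. The part of these library differences in the Elavl1 difference was not tested. The reads come from the 3′ end of transcripts and which exons are floxed is not stated in the labels, so this level may not see the deletion, and the mice are called labelled knockouts throughout. Depth in total RNA was 2632968 to 3963115 counts per female and 2629384 to 5848058 per male knockout library, and Xist and Y-linked counts matched the labelled sex in all 14 libraries.

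Some libraries stood apart. Male knockout 6 held transcripts of kidney, with 15 kidney markers summing to 1346 CPM against at most 100.1 CPM in the other males and 55.8 CPM in the females. Female knockouts 5, 6 and 12, which an earlier reading of these data had separated from the other females, had 131 to 172 CPM of Mss51, a mitochondrial protein gene of muscle, against 317 to 527 CPM in the other 4. Since Mss51 in these same libraries may have served to make that split, its values describe the split and do not test it. Male knockouts 1 and 12 stood apart from the other males in the same gene, at 215.2 and 215.7 CPM against 400.5 to 526.8 CPM, and had the lowest adipocyte marker sums, 2663 and 2849 CPM against 3384 to 4598 CPM. Fits without the 3 females still hold these males, and a fit without the 2 males was added after their values were seen. Values without these libraries are given for many of the genes that depend on them.

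Of the 12226 autosomal genes, 334 (2.73%) differed between male and female knockouts at an adjusted p under 0.05. Levels were higher in males for 221 genes (1.81%) and in females for 113 (0.924%), while the median log2 difference over all genes tested was −0.01. More than 2-fold differences were seen for 66 genes higher in males and 25 higher in females. All 7 males lay beyond all 7 females in 125 genes (1.02%), above them in 95 (0.777%) and below in 30 (0.245%). Leaving out each knockout in turn gave 258 (without female knockout 10) to 354 genes (without female knockout 12), and 172 genes were called in every one of these 14 fits, 121 higher in males and 51 in females. Without female knockouts 5, 6 and 12 there were 373 genes, among them 139 and 77 of the genes called in males and females with all libraries. Without male knockouts 1 and 12 there were 302, among them 157 and 64.

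Genes of polyamine synthesis and breakdown were among the male-higher genes. Amd1 and Amd2 encode S-adenosylmethionine decarboxylase, which supplies the aminopropyl groups for spermidine and spermine. Smox encodes spermine oxidase, which turns spermine back to spermidine, and Odc1 encodes ornithine decarboxylase, the entry enzyme of the pathway. Of 15 genes of polyamine metabolism tested, 4 were higher in males, 0 in females and 11 did not pass the test, with a median log2 difference of 0.17. Over all genes tested, 1.81% were higher in males and 0.924% in females, the shares to set beside each list of the knockouts below. The 250 bases before the start of Amd1 and Amd2 are shown because the transcripts are near copies while their upstream sequences are not. They come from RefSeq (GRCm38.p6, 5′ to 3′ on the minus strand of chromosome 10, chr10:40302189-40302438 for Amd1 and chr10:35711892-35712141 for Amd2), with the match to AGGTCA, the core hexamer of the oestrogen receptor element, in capitals where it was found on either strand.
Amd1: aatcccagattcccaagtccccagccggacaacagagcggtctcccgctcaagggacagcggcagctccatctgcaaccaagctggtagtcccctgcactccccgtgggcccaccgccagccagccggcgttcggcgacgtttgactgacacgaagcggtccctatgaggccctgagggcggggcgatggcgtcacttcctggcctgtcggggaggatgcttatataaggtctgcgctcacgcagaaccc
Amd2: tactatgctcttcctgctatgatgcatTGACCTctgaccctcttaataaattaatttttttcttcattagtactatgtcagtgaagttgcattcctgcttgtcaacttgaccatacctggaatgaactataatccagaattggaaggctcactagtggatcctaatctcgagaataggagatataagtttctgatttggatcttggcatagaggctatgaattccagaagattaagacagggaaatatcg

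The longest stretch shared by these windows was 7 bases, whereas 94.6% of the 50-base windows in the last 500 bases of either transcript occur in the other. A read of 50 bases from the 3′ end can therefore fit both genes. Reads that are not unique name no gene and were left out, so the levels of Amd1 and Amd2 may rest on a part of their reads. How their counts divide is uncertain, and whether their calls in the polyamine list are separate was not tested. The capitals in the Amd2 window read TGACCT, 223 to 218 bases before the start, and none of the motifs searched was found in the Amd1 window.

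Amd1 (ENSMUSG00000075232) ranged from 12.2 to 24.2 CPM in the 7 female knockouts, with a median of 15.9, and from 61.2 to 173 CPM in the 7 males, with a median of 89.1. The groups did not overlap, and the lowest male stood well above the highest female. The log2 difference was 2.58 (standard error 0.199, adjusted p = 9.43e-11), beside 2.66 in the controls, where females had a median of 22.1 and males of 142 CPM. Amd2 (ENSMUSG00000063953) had 2.24, 3.64 and 5.57 CPM as lowest, median and highest female values and 9.21, 24.9 and 41.5 CPM in males, again without overlap. Its log2 difference was 2.65 (standard error 0.289, adjusted p = 2.81e-07).

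Smox (ENSMUSG00000027333) stood at 32.6, 63.1 and 110 CPM in the females and at 127, 218 and 390 CPM in the males. All males lay above all females, although female knockouts 5, 6 and 12, at 98.1 to 110 CPM, came close to the lowest male. Males exceeded females by 1.72 on the log2 scale (standard error 0.215, adjusted p = 3.02e-06), and 2.25 without those 3 females. Without male knockouts 1 and 12, the highest males at 306 and 390 CPM, the difference was 1.42 (adjusted p = 5.27e-05).

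Odc1 (ENSMUSG00000011179) was the weakest of the 4. Female values were 2.83, 7.54 and 13.4 CPM and male values 8.01, 13.6 and 20.96 CPM, so that the groups overlapped. Their log2 difference was 0.79 (standard error 0.213, adjusted p = 0.0336), and 1.59 in the controls (adjusted p = 1.66e-06), a change between genotypes that did not pass the test (adjusted p = 0.356). Without female knockouts 5, 6 and 12 it was 0.51 (adjusted p = 0.191). The call in the knockouts was lost without any 1 of female knockouts 2, 5, 6 or 12 or male knockouts 6, 10, 13 or 14, with an adjusted p of up to 0.0994 (without male knockout 10). Spermidine synthase, encoded by Srm, showed 0.17 (adjusted p = 0.731), and the antizyme genes Oaz1 and Oaz2, whose proteins mark ornithine decarboxylase for breakdown, 0.07 and 0.13. In controls 6 of the 15 genes were higher in males and 1 in females, against shares of 4.83% and 3.93% of all genes.

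**Figure D1:**
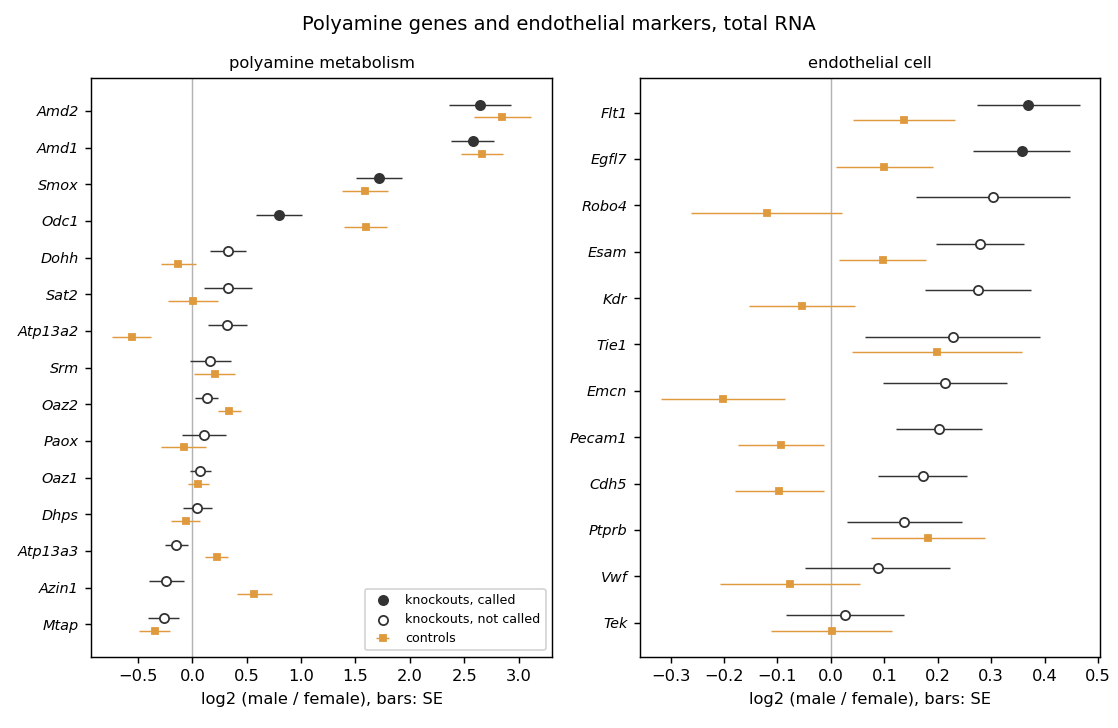
Log2 difference, male minus female, in total RNA for the 15 polyamine genes (left) and 12 endothelial markers (right) tested; circles are labelled knockouts (filled where called), squares controls, and bars standard errors. Amd1, Amd2 and Smox lie far to the right in both genotypes, and all 12 endothelial markers lie right of 0 in the knockouts.

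Cish, which encodes an inhibitor of cytokine and growth hormone receptor signalling through STAT5, followed the same direction. Female knockouts had 1.43, 2.83 and 7.85 CPM and male knockouts 8.82, 31.9 and 54.8 CPM. No male fell within the female range. On the log2 scale the difference was 2.98 (standard error 0.392, adjusted p = 6.75e-06) and 2.61 in the controls. Among 27 genes of growth hormone, IGF and myostatin signalling, the median was 0.03. Of these, 3 were higher in males (1.81% of all genes were), 0 in females and 24 did not pass. The second was Gdf11, a ligand close to myostatin, with 14.3, 31.1 and 48.2 CPM in females and 18.8, 99.6 and 113 CPM in males. Its groups overlapped through male knockouts 1 and 12, at 19.03 and 18.8 CPM, while the other 5 males had 56.6 to 113 CPM, and the log2 difference of 1.41 (standard error 0.305, adjusted p = 0.00634) became 1.05 (adjusted p = 0.0823) without female knockouts 5, 6 and 12 and 1.77 (adjusted p = 2.65e-06) without those 2 males. Bcl6, a transcriptional repressor, differed by 0.35 (adjusted p = 0.0434); that call was lost in 9 of the 14 fits that left out 1 library (without female knockouts 2, 5, 10 or 12 or male knockouts 1, 2, 6, 10 or 14), with an adjusted p of up to 0.0937. Igf1 (0.02, adjusted p = 0.973) and Mstn, the myostatin gene (0.02, adjusted p = 0.965), showed no difference that passed the test.

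Further male-higher genes had no male within the female range. Slc15a5, a member of the oligopeptide transporter family, had 0, 0.531 and 1.21 CPM in females and 6.83, 9.51 and 45.4 CPM in males. This was the largest log2 difference outside the genes that depended on male knockout 6, at 4.99 (standard error 0.596, adjusted p = 1.25e-06; controls 4.31). Actr3b, a homologue of a subunit of the actin-nucleating Arp2/3 complex, had medians of 5.99 and 29.0 CPM, with highest female 13.3 and lowest male 19.3 CPM. Its log2 difference was 2.31 (standard error 0.277, adjusted p = 1.34e-06). Odf3l2, named for an outer dense fibre protein of sperm, had medians of 2.83 and 10.2 CPM and a log2 difference of 2.32 (adjusted p = 0.000525, controls 3.13). Male knockouts 1 and 12 were the highest males in Slc15a5, Actr3b and Odf3l2. They had at least 39.0, 69.5 and 33.8 CPM, against at most 14.2, 31.9 and 18.3 CPM in the other males. Without them the log2 differences were 4.01, 1.76 and 1.57 (adjusted p up to 0.00656), and leaving them out lowers the differences by choice.

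Transcription factor genes were also higher in males. Of these, Irx3 and Tfcp2l1 were named only by the rule applied without male knockout 6, added after seeing the data. Irx3, an Iroquois homeobox gene, ranged from 5.42 to 12.1 CPM in females and from 25.6 to 37.3 CPM in males. The groups were far apart, and the log2 difference was 1.66 (standard error 0.165, adjusted p = 4.44e-08; controls 1.84). Tfcp2l1, of the grainyhead-like family, also differed by 1.66 (medians 4.33 and 16.4 CPM, adjusted p = 0.000171). Hsd11b1 encodes the enzyme that regenerates active glucocorticoid, and it was the 1 called gene of 13 tested on sex steroid receptors, coregulators and enzymes, with 21.4 and 38.7 CPM as medians and a log2 difference of 0.95 (adjusted p = 0.00533). Hp, the haptoglobin gene, had 27.8, 42.1 and 65.8 CPM in females and 92.1, 112 and 155 CPM in males. Again no male fell within the female range, and the log2 difference was 1.44 (standard error 0.214, adjusted p = 6.05e-05; controls 1.22). Hp was the 1 called member of 14 liver markers tested, whose median was −0.23.

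Nmb, named by that later rule too, encodes the peptide neuromedin B. It had 8.15, 12.2 and 15.8 CPM in females and 18.5, 30.3 and 42.5 CPM in males. All males exceeded all females, with a log2 difference of 1.47 (standard error 0.174, adjusted p = 1.07e-06; controls 1.25). Penk, the proenkephalin gene, and Cdk19, a kinase gene of the Mediator complex, were chosen after their values were seen. Both also separated the sexes fully, with log2 differences of 1.29 (adjusted p = 5.35e-06) and 1.26 (adjusted p = 2.65e-07).

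The window before Nmb is shown because it holds a core hexamer of the androgen and glucocorticoid receptor element, and that of Pcx, the leading metabolic gene on the female side, because it holds an E-box. Both are from RefSeq (GRCm38.p6, 5′ to 3′), Nmb on the minus strand at chr7:80905063-80905312 and Pcx, at its first listed start, on the plus strand at chr19:4510222-4510471, with the match in capitals.
Nmb: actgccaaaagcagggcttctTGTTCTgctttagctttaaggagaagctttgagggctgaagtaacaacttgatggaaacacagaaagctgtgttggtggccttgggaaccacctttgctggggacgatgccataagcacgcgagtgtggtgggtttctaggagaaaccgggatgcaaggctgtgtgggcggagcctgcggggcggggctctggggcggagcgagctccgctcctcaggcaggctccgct
Pcx: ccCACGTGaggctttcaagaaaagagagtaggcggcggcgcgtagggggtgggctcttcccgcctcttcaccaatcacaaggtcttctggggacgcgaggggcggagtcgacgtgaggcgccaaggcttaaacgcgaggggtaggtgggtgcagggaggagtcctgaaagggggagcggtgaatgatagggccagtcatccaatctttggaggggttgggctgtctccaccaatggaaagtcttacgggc

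The capitals read TGTTCT, 229 to 224 bases before the start of Nmb, and CACGTG, 248 to 243 bases before that of Pcx. None of the motifs searched was found in the 250 bases before the second listed start of Pcx. The same held for Smox, Cish, Irx3, Actc1 and Mycn. Windows from 250 bases before to 50 bases after the start were found for 47 of the 66 genes more than 2-fold higher in males (56 windows) and for 18 of the 25 higher in females (29 windows). Searched on both strands, AGAACA, the hexamer found in Nmb on the other strand, occurred in 21.4% of male-higher windows, 17.2% of female-higher windows and 18.97% of all 32851 windows. AGGTCA was found in 23.2%, 27.6% and 16.3%, TTCNNNGAA, the STAT5 element, in 10.7%, 3.45% and 8.30%, and CACGTG in 7.14%, 3.45% and 7.15%. TATAAA, the TATA box, was in 23.2% of male-higher, 3.45% of female-higher and 13.6% of all windows. The full androgen and glucocorticoid element and the full oestrogen element, each an inverted repeat of its hexamer, were in 0 windows of either set. With so few windows these shares describe the sets and draw no difference between them.

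**Figure D2:**
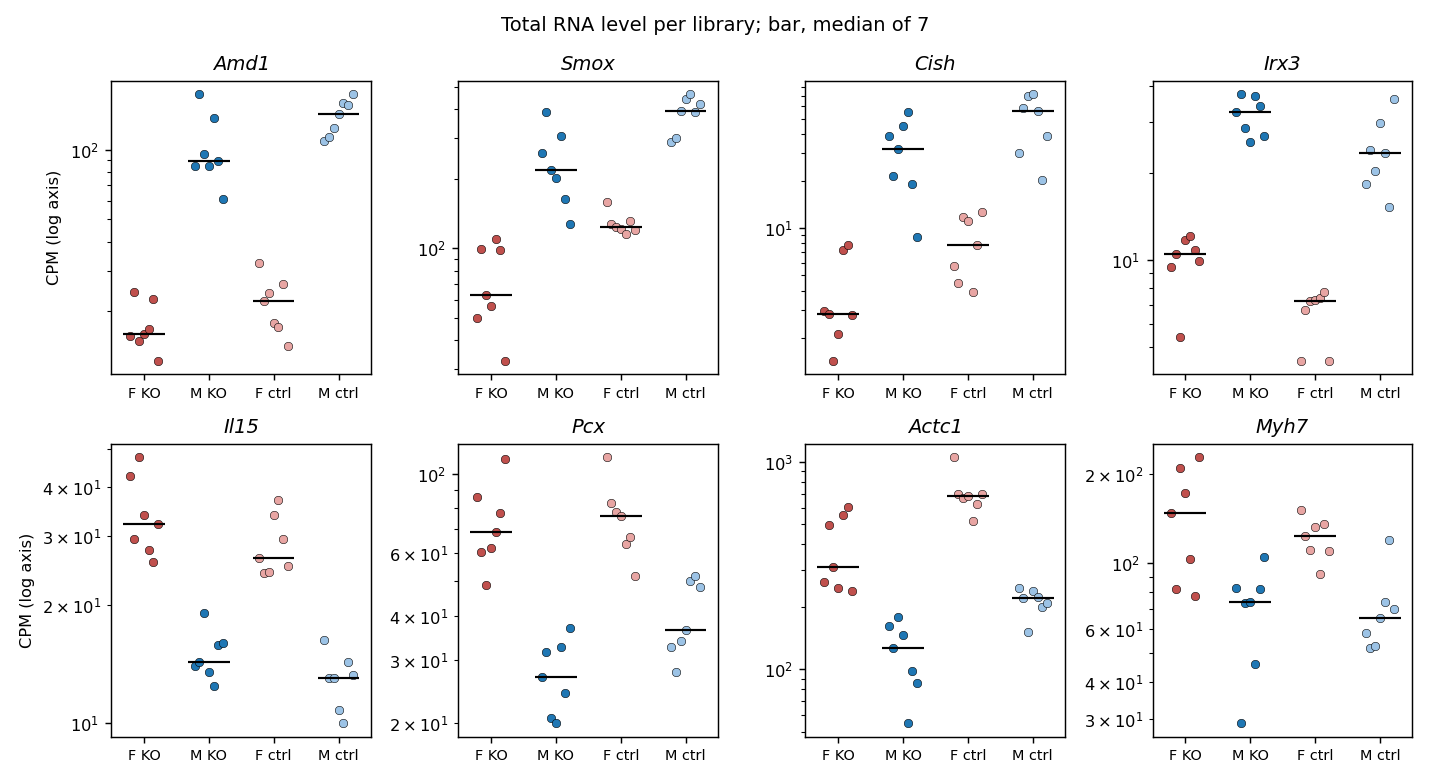
CPM on log axes in each of the 28 total RNA libraries for 4 genes higher in males (top) and 4 higher in females (bottom); F and M are female and male, KO labelled knockout, ctrl control, and the bar the median of 7. Amd1, Smox, Cish, Irx3, Il15, Pcx and Actc1 show no overlap between male and female knockouts, and Myh7 does.

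Genes of kidney tissue were among the largest male-higher differences. Acsm2 encodes an acyl-CoA synthetase, Slc34a1 a phosphate transporter of kidney tubules, Spink1 a trypsin inhibitor and Kap the kidney androgen-regulated protein. Acsm2 had 0, 0.497 and 4.22 CPM in females and 0.697, 13.3 and 257 CPM in males, and Slc34a1 0, 1.40 and 4.83 CPM against 0.340, 11.6 and 293 CPM. In each of the 4 genes the highest value was that of male knockout 6, and the groups overlapped. Log2 differences of 5.49, 4.89, 4.14 and 4.10 for Acsm2, Slc34a1, Spink1 and Kap became 3.35 (adjusted p = 0.0523), 2.60 (0.116), 1.85 (0.306) and 1.90 (0.313) without that library, and none of the 4 passed the test then. Kap was also lost without female knockouts 1, 5, 9 or 10. Kcnj15, a potassium channel gene, passed in all 14 fits, with a log2 difference of 3.25 (adjusted p = 0.00297) and of 1.87 (adjusted p = 0.0102) without male knockout 6, where it reached 43.8 CPM against at most 5.07 in the other males. Mup11, a major urinary protein gene, differed by 2.42 (adjusted p = 0.0254) and by 1.51 (adjusted p = 0.179) without male knockout 14; male knockout 14 also had the highest liver marker sum among males, 758.3 CPM against 153.7 to 431.8 CPM, whose part was not tested. The Mup11 call was also lost without female knockouts 6, 9 or 10, and 80.6% of windows in its last 500 bases occur in other Mup genes, so its counts are uncertain. Of the 15 kidney markers 4 were tested, and 2 were called with all libraries and 0 without male knockout 6; kidney sums in the other male knockouts were 8.49 to 100.1 CPM, and the part of kidney RNA in other genes was not tested. Without male knockout 6, 300 genes differed, 191 higher in males and 109 in females, of which 174 and 92 were among those called with all libraries.

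On the female side, Actc1, the cardiac form of sarcomeric alpha-actin, was higher in every female than in any male. Its levels in the 7 females were 238, 309 and 602 CPM as lowest, median and highest, and those in the 7 males 54.8, 126 and 179 CPM. Female knockouts 5, 6 and 12, at 496 to 602 CPM, were the highest. On the log2 scale the difference was −1.66 (standard error 0.222, adjusted p = 8.36e-06; controls −1.73) and −1.11 (adjusted p = 0.00137) without them. Il15, a cytokine made by muscle fibres, had 25.6, 32.1 and 47.7 CPM in females and 12.4, 14.3 and 19.03 CPM in males. Here too the groups were fully apart, with a log2 difference of −1.19 (standard error 0.138, adjusted p = 7.98e-07; controls −1.15).

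Pcx encodes pyruvate carboxylase, which feeds oxaloacetate into the citric acid cycle. It had 48.8, 68.8 and 110 CPM in females and 19.98, 27.02 and 36.98 CPM in males, with no overlap. This gave a log2 difference of −1.42 (standard error 0.178, adjusted p = 3.17e-06; controls −0.94). Grb10, which encodes an adaptor that restrains insulin and IGF receptors, had the smallest spread of these genes, at 99.6 to 120 CPM in females and 63.4 to 81.1 CPM in males. Its log2 difference was −0.64 (standard error 0.0751, adjusted p = 9.58e-07; controls −0.65). Grb10 and Pdk1, encoding a pyruvate dehydrogenase kinase, were the 2 female-higher genes among 27 of insulin signalling and glucose uptake, the other 25 did not pass, and the median was −0.00. Over all genes 0.924% were higher in females. Pdk1 (−0.34, adjusted p = 0.0236) was lost without female knockouts 5 or 12 or male knockout 10 (adjusted p up to 0.0655).

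Mycn, a MYC family transcription factor gene, had medians of 9.35 CPM in females and 2.92 CPM in males, with 5 of 7 males below all females. The log2 difference was −1.78 (standard error 0.365, adjusted p = 0.00367). Prlr, the prolactin receptor gene, differed by −1.61 (medians 7.42 and 2.33 CPM, adjusted p = 0.00133; controls −1.33). Twnk, which encodes the helicase of mitochondrial DNA, differed by −1.20 (adjusted p = 0.00739) and Mettl21e, a muscle methyltransferase gene, by −1.20 (adjusted p = 0.0109). Tenm4, of the teneurin family of membrane proteins, entered the set only by the rule applied without male knockout 6, as Irx3, Tfcp2l1 and Nmb did, and differed by −1.07 with all libraries (adjusted p = 0.000502). Slc1a2, a glutamate transporter gene, had overlapping groups (medians 7.02 and 4.37 CPM) and a log2 difference of −1.56 (adjusted p = 0.0465) that was lost in 9 of the 14 fits (without female knockouts 2, 9 or 12 or male knockouts 2, 6, 10, 12, 13 or 14), to −1.18 (adjusted p = 0.173) without female knockout 9. Snhg11, a noncoding RNA gene, did not pass with all libraries (−1.25, adjusted p = 0.0595) and did without male knockout 6 (−1.44, adjusted p = 0.0355).

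Zfp385a, a zinc finger gene, and Sln, which encodes sarcolipin, an inhibitor of the calcium pump, were higher in females through 4 of the 7. For Zfp385a the females 1, 2, 9 and 10 had 34.2 to 44.0 CPM, whereas female knockouts 5, 6 and 12 had 9.83 to 13.6 CPM, within the male range of 8.93 to 18.3 CPM. Together they gave a log2 difference of −1.16 (adjusted p = 0.0172), and −0.995 (adjusted p = 0.0558) without female knockout 10. Without female knockouts 5, 6 and 12 the difference was −1.65 (adjusted p = 4.11e-06). Sln ranged over 35.0 to 91.6 CPM in the same 4 females, 15.1 to 23.8 CPM in the other 3 and 6.97 to 27.3 CPM in males, and differed by −1.14 (adjusted p = 0.0265). Without female knockouts 5, 6 and 12 the Sln difference was −1.56 (adjusted p = 0.000981). Those females were the lowest in both genes, so leaving them out raises the differences by choice.

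Of 15 slow fibre genes tested, 8 were called higher in females (0.924% of all genes were), 0 in males and 7 did not pass. The median log2 difference was −0.58, beside −0.01 over all genes. The 8 included Myh7 and Myl3, the slow myosin heavy chain and an essential light chain, the troponins Tnnc1 and Tnnt1, the tropomyosin Tpm3, the calcium pump Atp2a2, the calcium store protein Casq2 and Sln. In the controls the same number, 8 of 15, was higher in females, with a median of −0.52. Fewer slow fibres and less RNA of these genes per fibre cannot be told apart in whole muscle, and the same holds for every cell type named here.

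Myh7 stood at 77.6, 148 and 227 CPM in females and 28.9, 74.3 and 105 CPM in males. The 4 females 1, 2, 9 and 10 lay above all males at 148 to 227 CPM, and female knockouts 5, 6 and 12, at 77.6 to 104 CPM, lay within the male range. Male knockouts 1 and 12 were the lowest males, at 45.8 and 28.9 CPM against 73.4 to 105 CPM. The log2 difference was −1.04 (standard error 0.233, adjusted p = 0.00852; controls −0.82). Myl3 had medians of 1227 and 842 CPM and a log2 difference of −0.48 (standard error 0.114, adjusted p = 0.0140). Tnnt1 and Tnnc1, named after their values were seen, as was Casq2, showed the same split among the females, with 518 to 695 CPM of Tnnt1 in the 4, 249.2 to 352 in the 3 and 110 to 399 in the males. Male knockouts 1 and 12 had 162 and 110 CPM of Tnnt1 against 295 to 399 CPM in the other 5 males.

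Without male knockouts 1 and 12, 1 of the 15 genes was called, Myh7 (−0.80, adjusted p = 0.0412), and the other 7 had adjusted p from 0.0767 for Myl3 to 0.154 for Tnnt1, with log2 differences of −0.37 (Myl3) to −0.88 (Sln). Myh7 and Myl3 passed in all 14 fits that left out 1 library. Tpm3 (−0.54, adjusted p = 0.0202) and Atp2a2 (−0.59, 0.0230) passed in 10, Sln in 9, Tnnc1 (−0.81, 0.0316) in 8, Casq2 (−0.58, 0.0236) in 6 and Tnnt1 (−0.75, 0.0481) in 5. The libraries whose removal cost 1 or more of these calls were female knockouts 1, 2, 5, 9, 10 and 12 and male knockouts 1, 6, 10, 12, 13 and 14, and the adjusted p reached 0.125 for Tnnt1 without female knockout 1. DESeq2 called 10 of the 15 genes and limma-voom 5, and without female knockouts 5, 6 and 12 edgeR called 9. Male knockouts 1 and 12 were the lowest males in Myh7 and Tnnt1, so leaving them out lowers those differences by choice. Female knockouts 5, 6 and 12 lay within the male range in both genes, so leaving them out raises the differences in the same way.

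Fast fibre genes gave no calls. Of 19 tested, 0 passed with edgeR, 0 with DESeq2 and 0 with limma-voom, and 2 had an unadjusted p under 0.05, with a median of −0.12. The fast myosin genes, chosen after their values were seen, differed by −0.23 for Myh4 (medians 11916 and 10448 CPM), −0.40 for Myh1 and −0.30 for Myh2, with adjusted p of 0.508, 0.273 and 0.377. The 12 general fibre markers also gave 0 calls by any of the 3 tools (2 at an unadjusted p under 0.05), and all 12 had negative differences, with a median of −0.20. Their summed level was 72240 to 91300 CPM in females and 49210 to 74190 CPM in males.

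**Figure D3:**
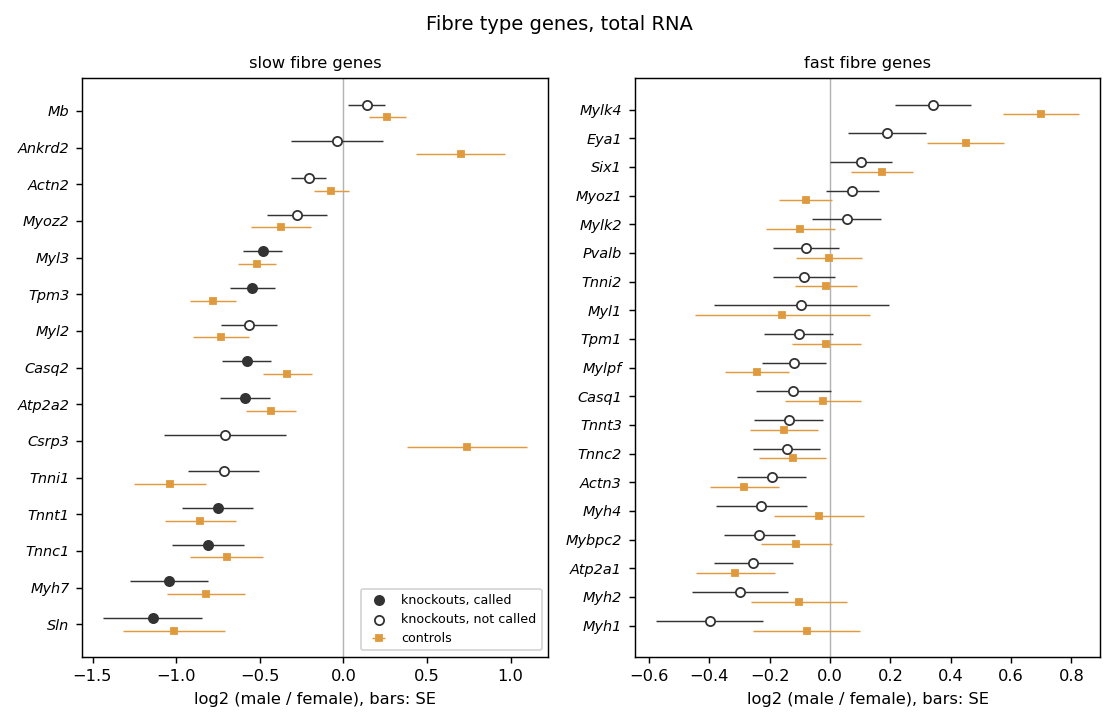
Log2 difference, male minus female, in total RNA for 15 slow (left) and 19 fast fibre genes (right); circles are labelled knockouts (filled where called), squares controls, and bars standard errors. The 8 filled circles are all on the left and below 0; no fast fibre gene was called in the knockouts.

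Of 12 endothelial markers 2 were called higher in males (1.81% of all genes were), with a median log2 difference of 0.22 over the 12. At an unadjusted p under 0.05 there were 7. DESeq2 called 3, limma-voom 1, and edgeR 0 without male knockouts 1 and 12. The 2 were Flt1, a VEGF receptor gene (0.37, standard error 0.0962, adjusted p = 0.0271), and Egfl7, which encodes a secreted vascular protein (0.36, standard error 0.0916, adjusted p = 0.0248). Flt1 was lost without female knockouts 1, 2, 5 or 10 or male knockout 10 (adjusted p up to 0.0673) and Egfl7 without female knockouts 2, 5, 6, 9 or 10 or male knockouts 1, 2 or 12 (up to 0.0764). In the controls the median was −0.03. The summed markers were 714.5 to 927.8 CPM in female knockouts (median 825.9) and 898.1 to 1028 CPM in males (median 962.2), against medians of 921.9 and 1007 CPM in female and male controls. The female knockouts were the low group, with 1 library, female knockout 12, within the male range.

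A further 4 vascular genes outside the list were chosen after, and for, their higher values in males, so their direction supports nothing. Cd300lg, an endothelial receptor gene, had 25.5, 26.8 and 32.7 CPM in female knockouts and 36.2, 38.9 and 46.7 CPM in males, without overlap. The log2 difference was 0.52 (standard error 0.0983, adjusted p = 0.00149) and −0.14 in controls, and the difference between genotypes did not pass the test (adjusted p = 0.126; DESeq2 0.0204). Aqp1, a water channel gene of microvessels, differed by 0.50 (adjusted p = 0.000548; controls 0.01), and by −0.61 in ribosome-bound RNA (adjusted p = 0.0576). The ribosome tag was switched on through the Mlc1f promoter, so the second value is no measure of vessel cells. Gpihbp1, which anchors lipoprotein lipase to capillaries (0.45, adjusted p = 0.0258), and Car4, a membrane carbonic anhydrase (0.89, adjusted p = 0.0353), were called with all libraries but lost in 6 and 9 of the 14 fits, with adjusted p of up to 0.0769 without female knockout 2 and 0.102 without male knockout 6. Libraries whose removal ended the Gpihbp1 call were female knockouts 1, 2, 5 and 10 and male knockouts 2 and 10, and for Car4 female knockouts 1, 2, 5, 6, 9 and 10 and male knockouts 2, 6 and 12.

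Macrophage, lymphocyte and fat cell markers gave 1 call each. At an unadjusted p under 0.05 there were 6 of 11 macrophage and 6 of 12 adipocyte markers. All 11 macrophage markers were positive in the knockouts, and controls had 4 called higher in males, with a median of 0.525. The adipocyte markers had a median of −0.26 in the knockouts and −0.29 in controls, where 3 were called higher in females. Among 11 macrophage markers, with a median of 0.44, the scavenger receptor gene Cd163 was higher in males (0.71, adjusted p = 0.0344; controls 0.13), with 17.2, 22.4 and 24.7 CPM in females and 22.2, 37.3 and 45.6 CPM in males. The call was lost in 9 fits (without female knockouts 1, 2, 6, 9 or 10 or male knockouts 2, 10, 13 or 14), and the adjusted p reached 0.0952. Ighm, the immunoglobulin M heavy chain gene, was called among 2 lymphocyte markers tested (0.78, adjusted p = 0.0223; controls 1.11) and was lost without female knockouts 1, 2, 9 or 10 or male knockout 12 (up to 0.0589). Retn, which encodes resistin of fat cells, was higher in females among 12 adipocyte markers (−0.84, adjusted p = 0.0263; controls −1.19) and was lost without female knockouts 1, 2 or 5 or male knockouts 1, 10, 12, 13 or 14 (up to 0.0636). The adipocyte sum was 4364 to 5903 CPM in females and 2663 to 4598 CPM in males; its part in the female-higher genes was not tested.

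**Figure D4:**
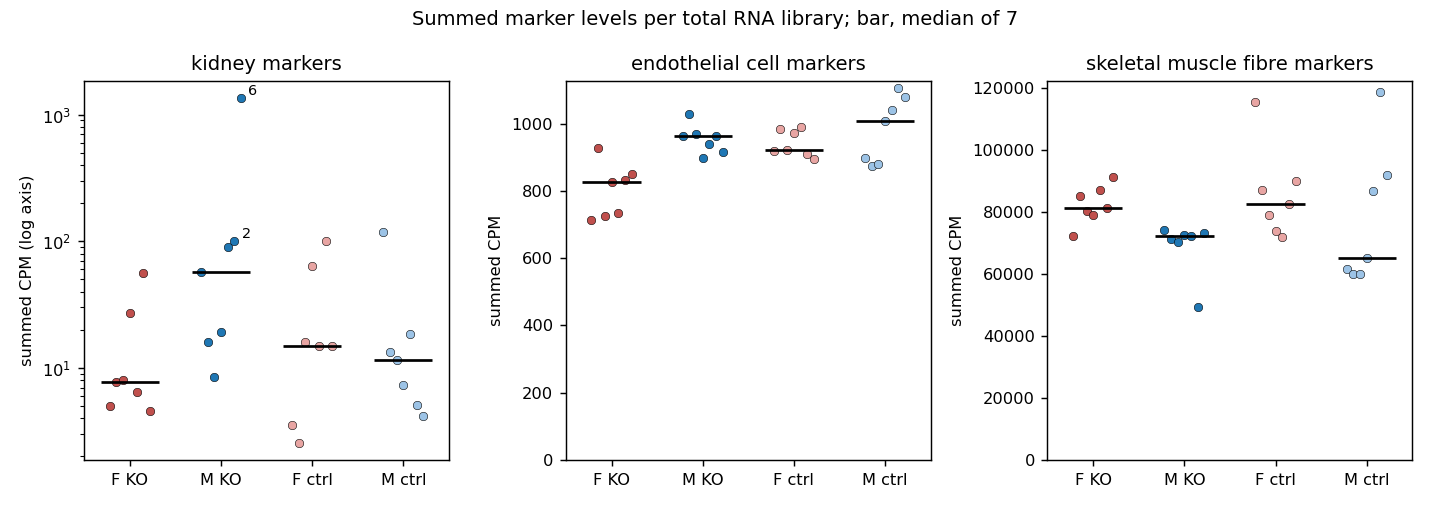
Summed CPM of kidney (log axis), endothelial and skeletal muscle fibre markers in each total RNA library; F and M are female and male, KO labelled knockout, ctrl control, and the bar the median of 7. Male knockout 6 stands at 1346 CPM of kidney markers, and 6 of the 7 female knockouts lie below every male knockout in endothelial sums.

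Of 32 lipid genes tested, 2 were higher in males, 2 in females and 28 did not pass, with a median of 0.05. The shares over all genes were 1.81% and 0.924%. Acaca, which encodes acetyl-CoA carboxylase, the committed step of fatty acid synthesis, had 13.7, 16.6 and 27.2 CPM in females and 8.12, 9.41 and 12.6 CPM in males. Elovl6, which encodes an elongase of long-chain fatty acids, had 6.85, 9.29 and 17.1 CPM in females and 2.33, 4.18 and 6.12 CPM in males. Neither gene had a male within the female range, and the log2 differences were −0.88 (standard error 0.203, adjusted p = 0.0111) and −1.23 (standard error 0.292, adjusted p = 0.0145), beside −0.09 and −0.41 in controls. Without female knockouts 5, 6 and 12 they were −0.57 (adjusted p = 0.151) and −0.85 (adjusted p = 0.151).

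Plin3, a lipid droplet coat gene, was higher in males by 0.51 (adjusted p = 0.00429; controls 0.10) and Vldlr, the very-low-density lipoprotein receptor gene, by 0.54 (adjusted p = 0.0275; controls 0.56). Without the same 3 females they were 0.38 (adjusted p = 0.0696) and 0.45 (adjusted p = 0.137), so none of the 4 lipid calls held in that fit, and Vldlr was also lost without female knockout 10 or male knockouts 1 or 10 (up to 0.0622). Nceh1, a neutral cholesterol ester hydrolase gene chosen after its values were seen, had 30.3, 32.5 and 34.9 CPM in females and 41.5, 54.0 and 69.6 CPM in males, with no overlap. Its log2 difference was 0.72 (standard error 0.106, adjusted p = 5.74e-05), 0.70 (adjusted p = 0.00173) without those females and 0.01 in controls, a change between genotypes that did not pass (adjusted p = 0.126; DESeq2 0.0204).

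Mitochondrial and other metabolic lists held few or no calls. Over all genes 2.73% were called, so a single call says little about a list of this size. Fatty acid oxidation had 0 of 24 called by edgeR, DESeq2 or limma-voom (2 at an unadjusted p under 0.05, median 0.08), and nuclear-encoded oxidative phosphorylation 0 of 48 by all 3 (0 at an unadjusted p under 0.05, median −0.01). Among regulators of the PGC-1, ERR and PPAR group, 1 of 18 was called, the orphan nuclear receptor gene Nr4a3, at 22.4 and 45.2 CPM as medians (log2 difference 1.10, adjusted p = 0.0104; controls 0.41; 1.02 with adjusted p = 0.0551 without female knockouts 5, 6 and 12). Among 27 glycolysis and glycogen genes, Stbd1, a glycogen-binding protein gene, was higher in females (−0.46, adjusted p = 0.0267), which was lost without female knockouts 1, 2, 5 or 6 or male knockouts 1, 2 or 12 (up to 0.0699). Per3 was the 1 of 20 clock genes called (−0.78, adjusted p = 0.0481), lost in 9 fits (without female knockouts 1, 2, 9 or 10 or male knockouts 1, 2, 12, 13 or 14; up to 0.125). Trim54, a sarcomeric ubiquitin ligase gene, was the 1 of 23 atrophy, ubiquitin and autophagy genes, at 137 to 165 CPM in females and 166 to 258 CPM in males (0.43, adjusted p = 0.00598). Without female knockouts 5, 6 and 12, the calls of Pdk1, Stbd1, Retn, Cd163, Car4, Casq2, Bcl6, Kap and Mup11 were also lost, with adjusted p from 0.0560 for Cd163 to 0.172 for Casq2. Without male knockouts 1 and 12 the calls of Elovl6, Mettl21e, Zfp385a, Bcl6, Vldlr, Stbd1, Per3, Retn and Ighm were lost, with adjusted p from 0.0548 for Mettl21e to 0.156 for Per3.

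Lists of stress, innervation, matrix and RNA-binding genes gave no edgeR call. Heat shock and chaperone genes had 0 of 16 called by any of the 3 tools (1 at an unadjusted p under 0.05), interferon and MHC class I genes 0 of 19 (0), extracellular matrix genes 0 of 25 (4) and the HuR family with other AU-rich element binding proteins 0 of 11 (0). Neuromuscular junction and denervation genes had 0 of 16 by edgeR (2 at an unadjusted p under 0.05), 2 by DESeq2 and 1 by limma-voom. Markers of fibroblasts (0 of 12, 2 at an unadjusted p under 0.05), smooth muscle cells and pericytes (0 of 12, 3), Schwann cells (0 of 10, 3), satellite cells (0 of 8, 3), neutrophils (0 of 2, 2), erythroid cells (0 of 6, 0), tendon cells (0 of 9, 0) and neurons (0 of 4, 2) gave 0 calls with all 3 tools.

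Fkbp5, a co-chaperone of the glucocorticoid receptor, and Nr3c1, the gene of that receptor, were the 2 called genes of 19 in the glucocorticoid list, in opposite directions, where 2.73% of all genes were called. Fkbp5 stood at 17.1, 21.8 and 25.95 CPM in female knockouts and 29.6, 34.7 and 53.8 CPM in males, below the controls' lowest value of 50.0 CPM in 13 of the 14 libraries. No knockout male fell within the female range, with a log2 difference of 0.77 (standard error 0.170, adjusted p = 0.00735). In controls it was −0.16, and the change between genotypes did not pass (adjusted p = 0.174). Nr3c1 had 217 to 284 CPM in females and 158 to 213 CPM in males, again without overlap, and differed by −0.41 (standard error 0.101, adjusted p = 0.0173; controls −0.15).

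Genes known to respond to the knockout in these same libraries were followed next; because they were chosen on these samples, their directions are no independent evidence. Of 21, 4 were higher in males (Smox, Htra4, Fkbp5 and Odc1), 1 in females (Ndufaf5) and 16 did not pass, with a median of 0.37 against −0.27 in controls. Htra4, a serine protease gene, had 3.09, 5.25 and 6.10 CPM in females and 6.26, 14.98 and 20.6 CPM in males, with the lowest male just above the highest female. Its log2 difference was 1.51 (standard error 0.252, adjusted p = 0.000284; controls 0.69). Ndufaf5, a complex I assembly gene, had 131, 208 and 235 CPM in females and 89.2, 126 and 135 CPM in males, overlapping through 1 female. It differed by −0.74 (standard error 0.122, adjusted p = 0.000247; controls −0.60). Mss51, chosen after its values were seen, did not pass in the knockouts (0.38, adjusted p = 0.549) and was higher in control males (1.32, adjusted p = 0.00247). Without female knockouts 5, 6 and 12, the lowest females in this gene, it stood at −0.09, a fall that follows from leaving them out. The thioesterase genes Acot1 and Acot2, also chosen after their values were seen, did not pass either (0.67, adjusted p = 0.520, and 0.71, adjusted p = 0.230).

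Set beside the controls, most called genes kept their sign. Among the 221 male-higher genes, 204 were positive in controls, 127 were called there too and 0 were called in the opposite direction. The shared calls made up 57.5% of the knockout list and 21.5% of the 591 genes called male-higher in controls, where 1072 autosomal genes (8.77%) differed between the sexes. Of the 113 female-higher genes, 105 had the same sign in controls, 60 were called there (53.1% of the knockout list and 12.5% of 481) and 0 were called in the opposite direction. The male-higher genes had a median log2 difference of 0.72 in the knockouts, which chose them, and 0.52 in controls, and the female-higher genes −0.73 and −0.51. Read from the other side, the 591 and 481 genes called in controls had medians of 0.56 and −0.48 there and of 0.23 and −0.16 in the knockouts, with 526 and 403 of the same sign.

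**Figure D5:**
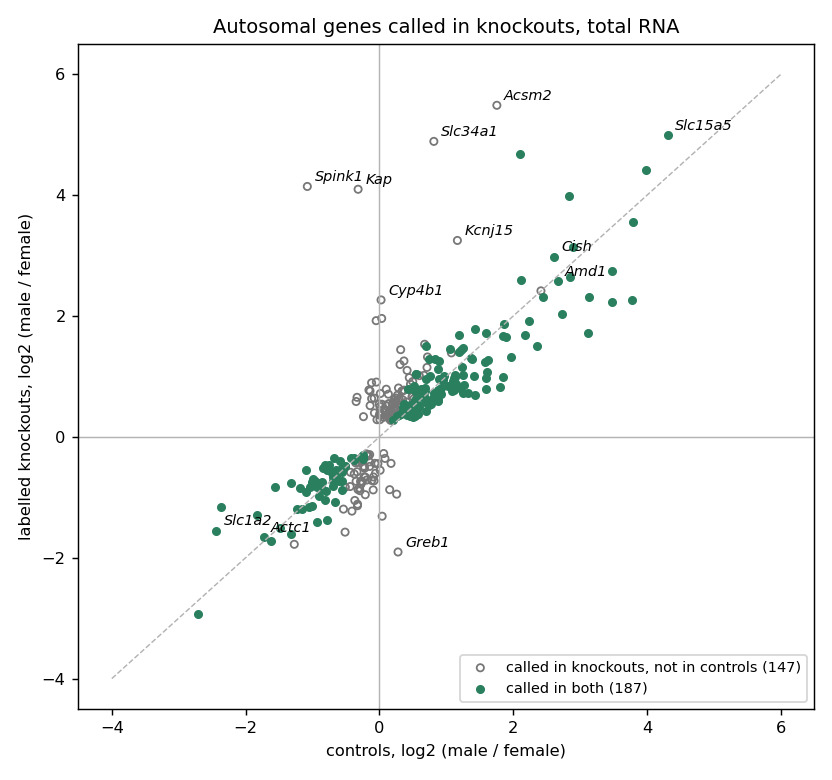
Log2 difference, male minus female, of the 334 genes called in labelled knockouts (vertical axis) against that in controls (horizontal axis); filled points were called in both and the dashed line marks equal values. The 187 filled points lie in the lower left and upper right; Spink1, Kap and Greb1 are among the open points whose sign differs in controls.

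No autosomal gene passed the test of whether its sex difference itself differed between genotypes. That count was 0 of 12226 with edgeR and 0 with limma-voom, whereas DESeq2 called 8, and 1181 genes (9.66%) had an unadjusted p under 0.05. Without female knockouts 5, 6 and 12 edgeR called 11, among them Aqp1, and leaving out any single library of the 28 gave 0. The smaller number of calls in knockouts than in controls is therefore a difference in counts, and the genes involved were not shown to differ. The median standard deviation of log2 CPM within a group was 0.254 in female and 0.242 in male knockouts, and 0.219 and 0.252 in female and male controls.

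Ribosome-bound RNA of the same labelled mice, a second preparation and no independent replicate, gave far more calls, with 2937 of 8715 autosomal genes (33.7%) differing between the sexes. The ribosomal libraries also differed between the sexes in depth and in reads outside genes, as given with Elavl1 above. The part of this in the calls was not tested. Of the male-higher genes of total RNA 154 were tested there, 121 had the same sign, 94 were called in the same direction and 8 in the opposite one. Among the female-higher genes these numbers were 86, 71, 40 and 3. Over all 8715 genes of the ribosomal fit 16.6% were called higher in males and 17.1% in females. Amd1 differed by 3.19 (adjusted p = 5.03e-13), Smox by 2.26, Cish by 3.10, Pcx by −1.66 and Myh7 by −2.53 (adjusted p = 8.50e-08). Actc1 (−0.49, adjusted p = 0.0883) and Sln (0.28, adjusted p = 0.547) did not pass. Flt1 and Egfl7 had the opposite sign in ribosomal RNA (−0.89, adjusted p = 0.0143, and −0.88, adjusted p = 0.0310), and so had Pdk1 (0.45, adjusted p = 0.0296). The tag was switched on through the Mlc1f promoter, so endothelial transcripts in this RNA need not come from tagged ribosomes. The values of Flt1 and Egfl7 there cannot be read as a reversal in endothelial cells.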

How the data were processed

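Per the labels' protocols, a 3′ tag kit (QuantSeq) turned 500 ng of RNA per sample into a library, read once over 50 bases. The submitters' processing notes name UMI-tools, STAR, HTSeq, DESeq2 1.40.1, R 4.3.0 and GRCm39. The deposited values are raw counts per gene, made by the authors; lines for reads outside genes (9.54% to 21.7% in the knockout total libraries), ambiguous and not unique reads name no gene and were left out. Symbols and chromosomes came from a GRCm38 annotation matched by identifier (52029 of 57010 genes, 97.6% of counts); 4981 genes had no chromosome there, of which 214 were tested, 7 were called, and all were left out.

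The 28 total libraries were fitted as 4 group means with edgeR 4.0.16 (quasi-likelihood F-test, filterByExpr, TMM) in R 4.3.3, and the 28 ribosomal libraries apart. Genes on all chromosomes stayed in the fit and in the Benjamini-Hochberg adjustment, and calls were made at an adjusted p under 0.05. Standard errors are the log2 difference divided by the square root of the quasi-likelihood F. CPM use TMM-scaled library sizes. The other tools were DESeq2 1.42.0 and limma-voom (limma 3.58.1) with sample weights. The scripts were tested on simulated data. Precision is limited by 2629384 to 5848058 counts per knockout library of total RNA.

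Named genes are the 12 largest called differences in each direction with mean CPM of at least 5 and no predicted or clone name, up to 4 called members of each list, and Elavl1; other list members are named for their role, and genes chosen after their values were seen are marked so. A gene that met this rule is not reported here. The same rule without male knockout 6 was added after seeing the data, and Irx3, Tfcp2l1, Nmb, Tenm4 and Snhg11 were named by it alone. The members and lists were chosen with earlier results of these data known. Alternatives were other normalization, filter and tools, fewer or more libraries, a replicate block and libraries left out.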

Additional observations from a re-analysis of the deposited data

Results flagged for a closer look

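Among 154 groups of 7 levels checked for a single library far from the others, 20 had one, where chance alone gives about 1 in 20 among independent groups; 5 of the 20 were at male knockout 6, so the groups share libraries. That library had 256.6 CPM of Acsm2 (other males 0.697 to 23.5), 293 of Slc34a1 (0.340 to 24.6), 154.2 of Spink1 (0 to 12.1), 713.1 of Kap (3.40 to 52.5) and 43.8 of Kcnj15 (1.70 to 5.07). Female knockout 6 stood far above the other females in 3 of these genes, with 4.224 CPM of Acsm2 (others up to 0.856), 4.828 of Slc34a1 (up to 1.86) and 6.94 of Spink1 (up to 1.33).

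Among other females, female knockout 12 had 136.2 CPM of Egfl7 (others 86.4 to 103.6) and 12.53 of Car4 (6.46 to 8.49). Female knockout 9 had 381.2 CPM of Vldlr (223.1 to 284) and 8.409 of Retn (21.1 to 28.3). Female knockout 2 had 65.82 CPM of Hp (27.8 to 42.9), and female knockout 1 had 5.424 CPM of Irx3 (9.44 to 12.1).

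Among other males, male knockout 14 had 128.6 CPM of Mup11 (6.45 to 34.4), and male knockout 10 had 53.8 CPM of Fkbp5 (29.6 to 36.6) and 191 of Nrip1 (131.1 to 148.2), which encodes a nuclear receptor corepressor. Male knockout 2 had 12.59 CPM of Acaca (8.12 to 9.96) and 51.45 of Elavl1 (82.3 to 97.6), and male knockout 12 had 66.9 CPM of Pdk1 (57.4 to 61.4).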

How the results depend on the processing

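The 334 calls in the knockouts were 211 when the 14 knockout libraries were fitted alone (132 and 57 of the male-higher and female-higher genes among them). A replicate block in those same 14 libraries, pairing numbers shared by male and female labels, gave 81 against the 211 without it (1686 in ribosomal RNA). The numbers do not pair mice by the labels, and deviations of the 5 same-numbered pairs correlated at −0.574 to 0.4. Libraries whose number is not shared between the sexes did not inform the sex difference in the block fit. That fit therefore also rests on fewer libraries. Without male knockouts 1 and 12 the count of calls was 302, and the slow fibre calls went from 8 to 1. These males were picked after their values were seen and were the lowest in Myh7 and Tnnt1, so the direction of that change follows from the choice. Other settings gave 239 (without male knockouts 2 and 6) to 421 genes (without the 5 total libraries with most reads outside genes), and leaving out 1 library gave 258 to 354. The sex by genotype count of 0 became 4 with no filter, 8 with DESeq2, 11 without female knockouts 5, 6 and 12 and 3 without those 5 libraries, and stayed 0 in each fit without 1 library. Of the named genes, Elavl1 changed sign without male knockout 2 (0.0087, and −0.13 at the other end when 1 library was left out, without male knockout 10) and without male knockouts 2 and 6 (0.016), and Mss51 without female knockouts 5, 6 and 12 (−0.085). Those females were the lowest in Mss51, and neither gene was called with all libraries. The other named values kept their sign under every setting run: 1616 stayed on their side of the threshold, 283 lost their call and 10 gained one, and the cause was not tested. Depth limits genes of few CPM: at these library sizes 1 CPM is a few counts.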

Other observations

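Several genes outside the naming rule, most of them too low for it, were picked after their values were seen. Sult1e1, which encodes the sulfotransferase that inactivates oestrogens, had 0, 0.302 and 0.993 CPM as lowest, median and highest values in female knockouts and 3.13, 6.60 and 10.1 CPM in males, with a log2 difference of 3.98 (standard error 0.447, adjusted p = 4.55e-07; controls 2.83). C7, a gene of the terminal complement pathway, had at most 0.531 CPM in female knockouts and at least 3.70 CPM in males (adjusted p = 4.55e-07; control difference 2.10). Slc30a2, a zinc transporter gene, had medians of 0.905 and 8.53 CPM in female and male knockouts (log2 difference 2.75, adjusted p = 8.11e-06) and of 1.99 and 21.5 CPM in controls. None of the 3 had a male knockout within the female range.

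On the female side, Greb1, a gene known for its response to oestrogen in other tissues, had 1.97, 6.21 and 15.8 CPM in female knockouts and 0.348, 1.70 and 2.28 CPM in males (log2 difference −1.91, adjusted p = 0.00889), while control medians were 2.29 and 1.83 CPM. The change between genotypes did not pass the test (adjusted p = 0.220). Adrb3, the beta-3 adrenergic receptor gene, had medians of 4.51 and 1.23 CPM in female and male knockouts and of 5.24 and 2.11 CPM in controls (log2 differences −1.72 and −1.62). Plod2, a collagen lysyl hydroxylase gene, and Nrip1 also differed in the knockouts (−0.88, adjusted p = 0.00251, and −0.55, adjusted p = 0.0139) with 0.15 and 0.01 in controls, and for neither did the change between genotypes pass the test.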
